A study of Mus musculus with 4 samples.

Results

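The genes described here are 37 genes by which liver X receptors (LXR) and peroxisome proliferator-activated receptors (PPAR) handle lipid, taken by name together with the enzymes that store and burn fatty acids. Of these, 35 were measured among 18194 genes, and Nr1h2 and Soat1 were not analysed here. Where several probe sets (groups of short probes against a transcript) read a gene, the one with the highest mean over the 4 arrays stands for it. Expression was measured in dendritic cells grown from the marrow of C57BL/6 mice, at least 3 mice per experiment, over 7 days in GM-CSF (10 ng/ml) plus IL-4 (10 ng/ml). Cells bearing CD11c were selected to a stated purity of 95%, then given diluent (control, 2 arrays) or SAHA (2 arrays) for 12 hours. SAHA (vorinostat) inhibits histone deacetylases, and the labels write the dose as 500 nm. All groups share the strain, the cytokines and the selection. The titles number the arrays of each group as biological replicates 1 and 2 without saying whether a number marks a shared culture or whether arrays came from separate cultures, so a p-value here reflects array-to-array spread alone, which may be technical.

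LXR are nuclear receptors that bind oxidised cholesterol and, paired with RXR, switch on genes that export cholesterol from macrophages and dendritic cells. PPAR bind fatty acids and likewise pair with RXR, PPAR gamma favouring fatty acid uptake and storage and PPAR alpha and delta favouring their oxidation in mitochondria and peroxisomes. Dendritic cells grown with GM-CSF and IL-4 are a setting in which PPAR gamma and lipid droplets are known to be active.

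With SAHA, Dgat1, an enzyme that makes triglyceride, and Acadl, a mitochondrial dehydrogenase that oxidises fatty acids, rose 2.01-fold and 1.55-fold. No other gene of the 35 passed the threshold (limma, Benjamini-Hochberg adjusted p under 0.05 over all 18194 genes). The 2 genes that passed were 5.71% of the 35, where 1.52% of all genes were called higher, and 0 of the 35 passed as lower, where 0.709% of all genes did. At an unadjusted p under 0.05 there were 8 genes (22.9%), against 18.1% of all genes, and of the 8, Nr1h3, Apoc2 and Fabp3 were the lower ones. The median log2 change (SAHA minus control) was -0.04 over the 35 genes and -0.05 over all genes. Both SAHA arrays lay above both control arrays for 9 genes and below them for another 9, 25.7% each, against 21.1% and 29.6% of all genes. The shares of genes without overlap were near those of all genes, while the 5.71% called higher, above 1.52%, rested on 2 genes.

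Among markers fixed for other cell types, the neutrophil list had a median change of -0.75, with 5 of its 10 measured genes past the threshold as lower. In the opposite direction, Prtn3 rose 12.6-fold (adjusted p = 0.00833), from 5.11 and 5.72 in control to 9.22 and 8.92 in SAHA arrays. The summed level of the list on the linear scale was 3471 to 3472 in control and 2202 to 2260 in SAHA arrays. The part of these markers in the results below was not tested. Itgax, which encodes CD11c, lay between 12.44 and 13.40 log2 units on the 4 arrays, and of 13 dendritic cell markers Cd209a alone lay under the 50th percentile of every array. Of the 13, Clec10a rose 3.65-fold (adjusted p = 0.0140) and Irf4 1.75-fold (adjusted p = 0.0431) with SAHA, and their part in the results below was not tested either. Fat cells express many of the genes described here, and of 4 measured adipocyte markers Adipoq, Lep and Cidec lay under the 25th percentile of each array. Retn, the remaining marker, lay between the 57.1st and 63.0th percentile. In a bulk sample, fewer cells of a type and less RNA per cell cannot be told apart.

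**Figure D1:**
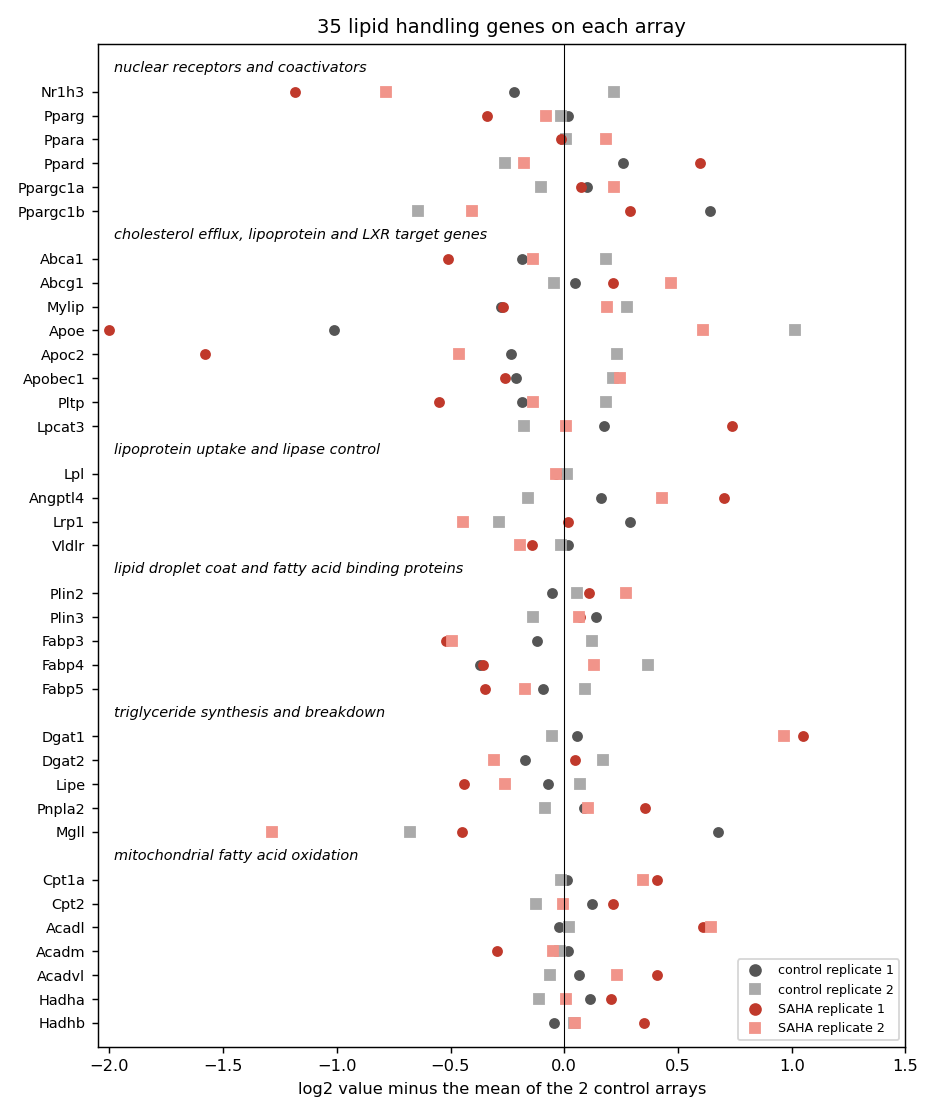
Log2 value of each of the 35 genes on each of the 4 arrays, less the mean of the 2 control arrays, with genes grouped by role. Both red SAHA points of Dgat1 and Acadl stand to the right of the grey control points, and the circles (replicate 1) and squares (replicate 2) of Apoe lie far apart in both groups.

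Of the nuclear receptor genes, Nr1h3, which encodes LXR alpha, had the largest difference between the groups. Its log2 values were 7.08 and 7.52 on control replicates 1 and 2, and 6.12 and 6.51 on SAHA replicates 1 and 2. Both SAHA arrays were thus the lower ones, and the difference was -0.96 between the arrays numbered 1 and -1.003 between those numbered 2. The log2 change of -0.98 ± 0.22 (SE) missed the threshold over all genes (adjusted p = 0.0863). Leaving out control replicate 1, the lower control array, widened the difference to -1.20. Nr1h3 was read by 1 probe set.

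Pparg, the gene of the PPAR form tied to lipid storage, was read by 1 probe set at 5.98 and 5.95 log2 units in control and 5.63 and 5.89 in SAHA arrays. Its change of -0.21 had a 95% interval of -0.59 to 0.17. Ppara stayed between 4.36 and 4.56 on the 4 arrays, at or below the 38.6th percentile of probe sets, with a change of 0.09. Ppard, the widely expressed form, was at 7.71 and 7.19 in control and 8.04 and 7.27 in SAHA arrays, so replicate 1 was the higher array in both groups. Neither coactivator gene passed the threshold. Ppargc1a, which drives mitochondrial growth in muscle and brown fat, lay under the 18.5th percentile on every array. Its relative Ppargc1b was at 9.53 and 8.24 in control and 9.17 and 8.48 in SAHA arrays. The control arrays enclosed the SAHA arrays, and the change of -0.06 had an interval of -1.09 to 0.97.

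Neither of the measured cholesterol exporters of the LXR programme passed the threshold. Abca1, the transporter that loads cholesterol onto apolipoprotein A-I, was at 11.88 and 12.24 log2 units in control and 11.55 and 11.92 in SAHA arrays. The groups overlapped, while the differences within a replicate number were -0.33 and -0.32. Its further probe sets gave log2 changes of -0.62 and -0.74, against -0.32 ± 0.18 (SE, adjusted p = 0.407) for the 1 reported. Abcg1, which passes cholesterol to high-density lipoprotein, was at 11.10 and 11.00 in control and 11.26 and 11.52 in SAHA arrays. Here both SAHA arrays were the higher ones, with a change of 0.34 ± 0.14 (SE, adjusted p = 0.268) and 0.55 from the further probe set.

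Of the other LXR target and lipoprotein genes, Mylip, Apobec1, Pltp and Lpcat3 had groups that overlapped, and none of them passed the threshold. Mylip, which marks the LDL receptor for breakdown, was at 10.47 and 11.02 in control and 10.47 and 10.93 in SAHA arrays, a change of -0.04. Apobec1, the editing enzyme of apolipoprotein B mRNA, had a change of -0.01. Pltp, the phospholipid transfer protein, had differences of -0.37 and -0.32 within the replicate numbers and a change of -0.34 ± 0.20 (SE, adjusted p = 0.422), with -0.34 from its further probe set. Lpcat3, which puts polyunsaturated chains into membrane phospholipids, was at 9.99 and 9.64 in control and 10.56 and 9.83 in SAHA arrays. SAHA replicate 1 was the high array, and the change was 0.37 (adjusted p = 0.495).

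The apolipoprotein genes Apoc2 and Apoe had lower means with SAHA and wide spreads. Apoc2, the cofactor of lipoprotein lipase, was at 8.15 and 8.61 log2 units in control and 6.80 and 7.92 in SAHA arrays. Both SAHA arrays were below both control arrays, and the change was -1.02 ± 0.37 (SE, 95% interval -1.91 to -0.14), which missed the threshold (adjusted p = 0.220). Without SAHA replicate 1 it was -0.46 and without SAHA replicate 2 -1.58. Apoe, the apolipoprotein that macrophages secrete to carry cholesterol, was at 7.45 and 9.47 in control and 6.46 and 9.07 in SAHA arrays. Replicate 2 was higher by 2.03 in control and by 2.61 in SAHA-treated cells, so the gap between replicates exceeded the difference between the group means. Between same-numbered arrays, Apoe was lower with SAHA by -0.99 in replicate 1 and -0.40 in replicate 2. The change over the groups was -0.69 ± 0.93 (SE, adjusted p = 0.728), with an interval of -2.94 to 1.55. Leaving out 1 array turned its sign, from -2.00 without SAHA replicate 2 to 0.61 without SAHA replicate 1.

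**Figure D2:**
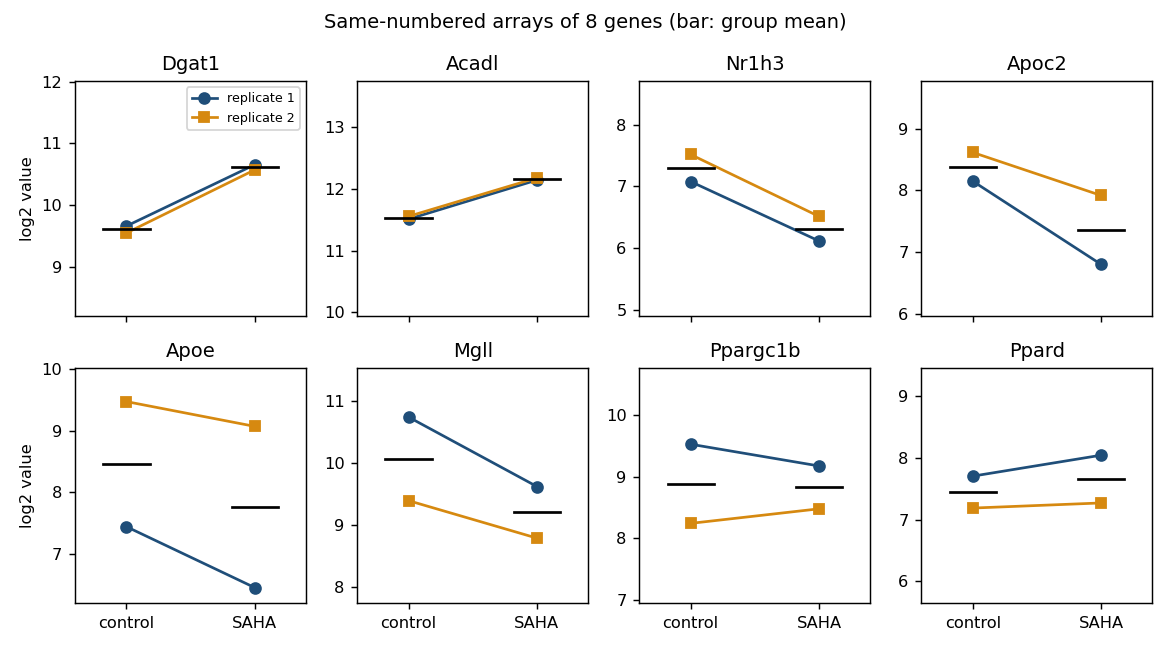
Log2 values of 8 genes on the control and SAHA arrays, with lines joining arrays of the same replicate number and black bars at the group means; each panel spans the same range. The Apoe lines run 2.03 to 2.61 log2 units apart, while the Dgat1, Acadl and Nr1h3 lines lie close together and slope the same way.

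Other genes also had wide gaps between replicates. Mgll, Ppargc1b and Ppard were, with Apoe, the genes whose replicates lay at least 0.5 log2 units apart the same way in both groups. That made 4 of 35 (11.4%), against 2.59% of all genes. The gap of Apoe was known when the genes were chosen, so its place in this count was fixed beforehand. For Mgll, Ppargc1b and Ppard replicate 1 was the higher array, the opposite of Apoe. The further probe set of Ppard, at or below the 41.2nd percentile, read replicate 2 as higher, by 0.080 in control and 0.044 in SAHA arrays. In 13 of the 35 genes (37.1%) the replicates of both groups differed by more than the group means did, against 31.6% of all genes. Of 12 measured macrophage markers, 6 were higher and 5 lower on replicate 2 in both groups. Their summed linear level was 47120 and 55540 on control replicates 1 and 2, and 45123 and 55797 on SAHA replicates 1 and 2. Among them C1qa went from 10.56 to 11.86 between control replicates 1 and 2, whereas Marco went from 10.13 to 8.91. Cd163 and Timd4 lay under the 25th percentile of each array. All 3 measured eosinophil markers were lower on replicate 2 in both groups, as Mgll, Ppargc1b, Ppard and 5102 of all 18194 genes were. The eosinophil sum on the linear scale was 203 and 82.1 on control replicates 1 and 2. It was 141 and 82.0 on SAHA replicates 1 and 2. Epx lay under the 50th percentile of every array. On replicate 2, all 4 measured NK cell markers and 5 of 7 stromal cell markers were higher in both groups, as Apoe was, and 0 of either list were lower. Under the 50th percentile of every array lay 3 of the NK cell and 5 of the 7 stromal cell markers. Of 13 dendritic cell markers, 6 were higher and 3 lower on replicate 2 in both groups. Among the 3 lower ones, Itgax differed by -0.96 in control and -0.70 in SAHA arrays, and Dcstamp by -0.82 and -1.04. The part of these cells or markers in the replicate gaps was not tested.

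**Figure D3:**
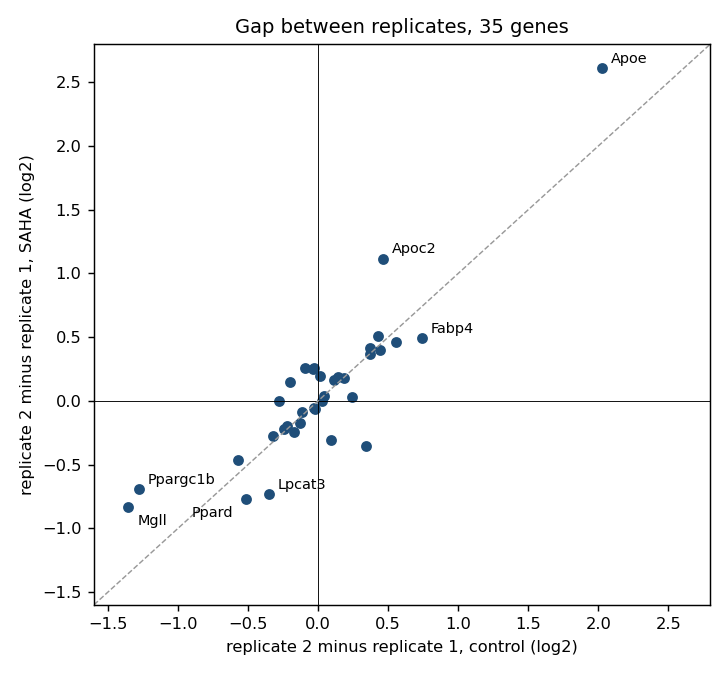
Replicate 2 minus replicate 1 in log2 units, in control (x axis) and in SAHA arrays (y axis), 1 point per gene for the 35 genes; the dashed line marks equal gaps. Apoe lies at 2.03 and 2.61, and Mgll and Ppargc1b lie on the opposite side, with replicate 1 higher in both groups.

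Lipoprotein lipase, encoded by Lpl, splits the triglyceride of lipoproteins, and the secreted protein Angptl4 inhibits it. Lpl was at 14.35 and 14.38 log2 units in control and 14.33 and 14.33 in SAHA arrays, at or above the 99.9th percentile of probe sets. The 95% interval of the change was -0.24 to 0.17, and whether so bright a signal was saturated was not tested. Angptl4, a PPAR target, was at 5.96 and 5.64 in control and 6.498 and 6.23 in SAHA arrays. The SAHA arrays were the higher ones, and the change of 0.56 ± 0.18 (SE, 95% interval 0.12 to 1.01) missed the threshold (adjusted p = 0.190). Its further probe set lay under the 2.67th percentile. Lrp1, a large endocytic receptor that takes up apolipoprotein E, had a change of -0.21, with replicate 2 lower in both groups. Vldlr stayed between 4.27 and 4.47 on the 4 arrays, at or below the 36.7th percentile.

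Droplet coat genes differed little between the groups. Plin2, which coats lipid droplets and is a PPAR target, was at 13.12 and 13.23 log2 units in control and 13.28 and 13.44 in SAHA arrays. The groups did not overlap, with a change of 0.19 (95% interval -0.08 to 0.46, adjusted p = 0.424). Plin3, a coat protein that moves between cytosol and droplet, had a change of 0.07.

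The fatty acid binding proteins, which carry fatty acids within the cell, had mean changes below 0. Fabp3 was at 8.61 and 8.85 in control and 8.21 and 8.24 in SAHA arrays, and Fabp5 at 14.27 and 14.45 in control and 14.02 and 14.19 in SAHA arrays. In both genes the SAHA arrays lay below the control arrays. The changes were -0.51 ± 0.16 (SE, adjusted p = 0.166) for Fabp3 and -0.26 ± 0.11 (SE, adjusted p = 0.294) for Fabp5. The further probe sets gave 0.15 for Fabp3 and -0.56 for Fabp5. Fabp4, a target of PPAR gamma, was at 10.78 and 11.52 in control and 10.79 and 11.29 in SAHA arrays. Its arrays split by replicate number rather than by treatment, and its further probe sets gave changes from -0.12 to 0.40.

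Dgat1 and Dgat2 catalyse the last step of triglyceride synthesis, and Dgat1 was the gene that rose most among the 35. It was at 9.66 and 9.55 log2 units in control and 10.65 and 10.57 in SAHA arrays. The groups lay about 1 log2 unit apart and arrays of a group differed by at most 0.112. The change was 1.01 ± 0.13 (SE, adjusted p = 0.0241), 2.01-fold with a 95% interval of 1.61-fold to 2.51-fold. The reported probe set is of a type, marked _s_at, that may also match further transcripts, as are those reported for Angptl4 and Mgll. The further probe set of Dgat1, at 5.54 to 6.19 log2 units, gave 0.36, with 0.066 within replicate 1 and 0.66 within replicate 2. The call was lost when the probe sets were averaged (0.68, adjusted p = 0.0828), without SAHA replicate 1 (adjusted p = 0.172) and without SAHA replicate 2 (0.0942), and when values under the 20th percentile were raised to it, which left 0 of 18194 genes past the threshold. Dgat2 was at 7.42 and 7.77 in control and 7.64 and 7.29 in SAHA arrays, so the groups overlapped, with -0.13 from this probe set and 0.36 from the other.

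Of the lipases that release fatty acids, none passed. Pnpla2 (ATGL), which takes the first fatty acid from triglyceride, was at 9.64 and 9.47 in control and 9.91 and 9.66 in SAHA arrays, a change of 0.23. Lipe, the hormone-sensitive lipase of the next step, was at 8.22 and 8.36 in control and 7.84 and 8.03 in SAHA arrays. Its SAHA arrays were the lower ones, and the change was -0.35 ± 0.16 (SE, adjusted p = 0.307). Mgll, which completes the breakdown by splitting monoacylglycerol, was at 10.74 and 9.39 in control and 9.62 and 8.78 in SAHA arrays. It was lower with SAHA within both replicate numbers, by -1.12 and -0.61, yet SAHA replicate 1 lay above control replicate 2. The change over the groups was -0.87 ± 0.46 (SE, adjusted p = 0.386), and its 3 further probe sets gave -1.04, -0.82 and -0.23. The last of these read replicate 2 as higher by 0.26 in control, unlike the others. Without control replicate 1 the change was -0.19, and without control replicate 2 it was -1.54.

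**Figure D4:**
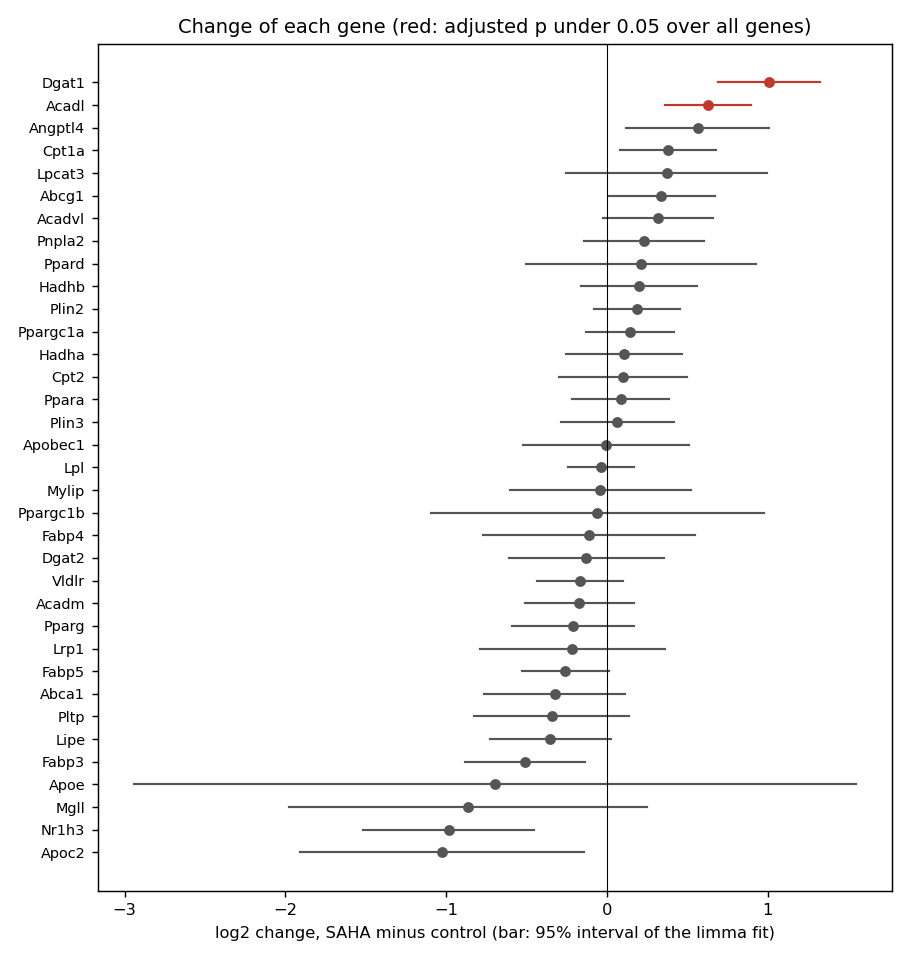
Log2 change (SAHA minus control) of each of the 35 genes, in order of size, with the 95% interval of the limma fit as a bar. Dgat1 and Acadl, in red, are the 2 genes past the adjusted threshold, and the interval of Apoe, -2.94 to 1.55, is the widest.

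The genes of mitochondrial fatty acid oxidation included Acadl, the other gene that rose. Acadl, the dehydrogenase of long-chain acyl-CoA, was at 11.51 and 11.56 log2 units in control and 12.14 and 12.18 in SAHA arrays. Arrays of a group differed by 0.045 and 0.035, and the groups were far apart by comparison. The change was 0.63 ± 0.11 (SE, adjusted p = 0.0474), 1.55-fold with a 95% interval of 1.29-fold to 1.86-fold. Its adjusted p lay close to the threshold and the call was lost without any 1 array (0.0970 to 0.292), without the intensity trend (0.0604) and with the other settings given under the processing alternatives. The further probe set, at 3.54 to 3.97 log2 units and under the 25th percentile of each array, gave 0.00.

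Of the 7 oxidation genes, 6 were higher with SAHA within both replicate numbers and 1, Acadm, was lower in both. For Hadhb the difference within replicate 2 was 0.00042. Over all 35 genes 13 (37.1%) were higher in both numbers and 14 (40%) lower, against 29.6% and 42.3% of all genes. The median change of the 7 was 0.20, beside -0.05 over all genes. Cpt1a, the outer membrane transferase that controls entry of fatty acids into mitochondria, was at 10.32 and 10.30 in control and 10.72 and 10.66 in SAHA arrays. Here too the SAHA arrays were the higher ones, and the change was 0.38 ± 0.12 (SE, adjusted p = 0.190). Acadvl, the dehydrogenase of very long chains, was at 9.84 and 9.71 in control and 10.18 and 10.00 in SAHA arrays, a change of 0.32 ± 0.14 (SE, adjusted p = 0.305). Acadm, its counterpart for medium chains, had a change of -0.17 ± 0.14 (SE, adjusted p = 0.560). Cpt2, the inner membrane partner of Cpt1a, and Hadha and Hadhb, the subunits of the trifunctional protein that finishes each oxidation round, had changes of 0.10, 0.11 and 0.20.

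The 250 bases before the transcription start of Acadl, Cpt1a and Acadvl, the oxidation genes with the largest positive changes, are shown because these genes were higher with SAHA on every array. The sequences are from RefSeq (GRCm38.p6), 5' to 3' on the strand of the gene, and capitals mark matches to AGGTCA (the single site bound by 1 partner of a PPAR, LXR or RXR pair), to GGGCGG (the GC box) and to CCAAT on either strand. The windows are chr1:66863310-66863559 on the minus strand for Acadl, chr19:3323051-3323300 on the plus strand for Cpt1a and chr11:70015429-70015678 on the minus strand for Acadvl.
Acadl: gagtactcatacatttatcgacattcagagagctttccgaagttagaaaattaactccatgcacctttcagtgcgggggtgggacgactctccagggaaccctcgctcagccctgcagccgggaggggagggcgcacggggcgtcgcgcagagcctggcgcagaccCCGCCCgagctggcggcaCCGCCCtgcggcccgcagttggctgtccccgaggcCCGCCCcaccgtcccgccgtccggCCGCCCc
Cpt1a: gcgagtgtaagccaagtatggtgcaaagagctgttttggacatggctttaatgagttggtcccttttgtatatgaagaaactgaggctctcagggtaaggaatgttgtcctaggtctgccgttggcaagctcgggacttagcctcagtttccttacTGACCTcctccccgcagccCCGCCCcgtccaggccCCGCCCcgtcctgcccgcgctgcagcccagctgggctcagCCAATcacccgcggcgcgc
Acadvl: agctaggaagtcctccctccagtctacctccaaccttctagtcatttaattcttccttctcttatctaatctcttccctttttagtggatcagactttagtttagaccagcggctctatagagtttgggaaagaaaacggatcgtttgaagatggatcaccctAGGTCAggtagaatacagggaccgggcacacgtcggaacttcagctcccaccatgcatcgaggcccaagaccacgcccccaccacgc

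The Acadl window held 4 GC boxes and no AGGTCA. The Cpt1a window held 1 AGGTCA, 2 GC boxes and 1 CCAAT, and the Acadvl window held 1 AGGTCA. Promoter sequences matched 27 of the 35 genes by symbol, with 35 windows in all because some genes have several starts, and Dgat1 was not among them. AGGTCA was found in 7 of these 35 windows (20%), against 14.0% of the 32851 windows of all genes. GGGCGG was found in 19 (54.3%) against 32.7%, and CCAAT in 10 (28.6%) against 33.8%. Direct repeats of AGGTCA or GGGTCA or AGTTCA or GGTTCA were also searched on both strands, so that an AGGTCA within a repeat counts under both. Repeats 1 base apart, the spacing used by PPAR with RXR, and 4 bases apart, that of LXR with RXR, were found in 0 of the 35 windows and in 0.164% and 0.067% of all windows. The windows of Hadha and Hadhb, whose starts face away from each other, share 228 bases.

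**Figure D5:**
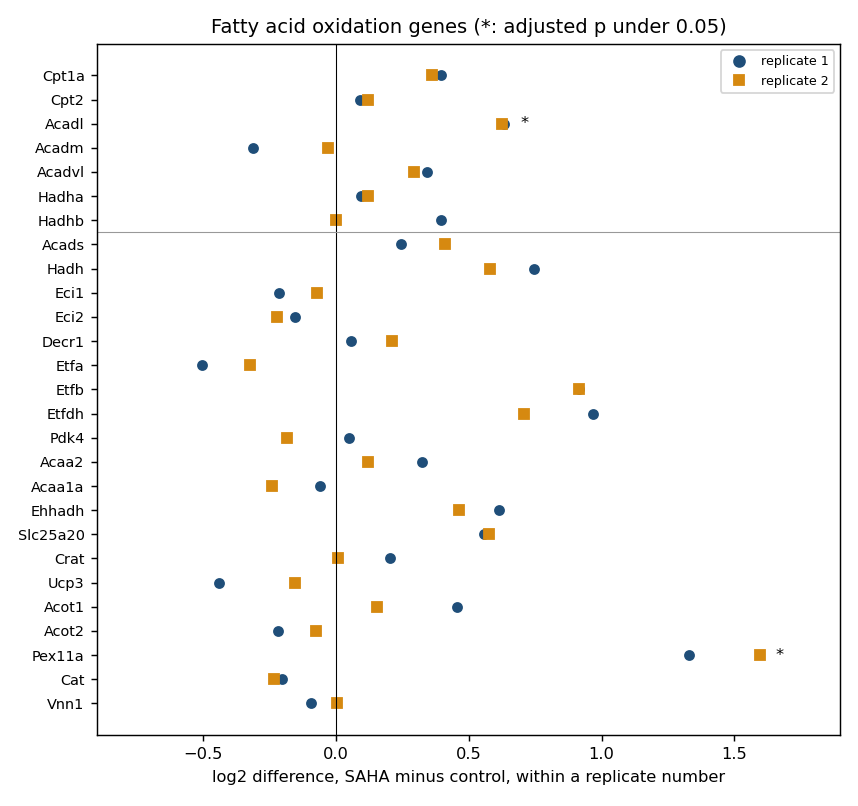
Log2 difference (SAHA minus control) within replicate 1 (circles) and replicate 2 (squares) for the 7 oxidation genes, above the line, and 20 other oxidation and PPAR target genes, below it. Acadl and Pex11a, marked with a star, passed the adjusted threshold, and Etfb, Etfdh and Hadh lie to the right of 0 in both numbers while Etfa lies to the left.

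Other genes of LXR and PPAR lipid handling were read from lists of 81 genes, of which 71 were measured. Pex11a and Ch25h passed as higher (2.82%, against 1.52% of all genes) and none as lower. An unadjusted p under 0.05 was found for 18 (25.4%), against 18.1% of all genes, and the median change was -0.07. Pex11a, a PPAR alpha target that divides peroxisomes, was at 6.95 and 6.53 log2 units in control and 8.28 and 8.13 in SAHA arrays. The SAHA arrays were well above the controls, a rise of 2.76-fold (log2 change 1.46 ± 0.19, SE, adjusted p = 0.0238). Ch25h, which makes the LXR ligand 25-hydroxycholesterol, was at 8.41 and 8.56 in control and 9.29 and 9.61 in SAHA arrays, a rise of 1.95-fold (0.96 ± 0.17, SE, adjusted p = 0.0472). The Ch25h call was lost without any 1 array, and that of Pex11a without each SAHA array.

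Among 20 further oxidation and PPAR target genes the median change was 0.12, with 11 above 0. Etfb, a subunit of the flavoprotein that takes electrons from the acyl-CoA dehydrogenases, was at 10.31 and 9.80 in control and 11.22 and 10.71 in SAHA arrays. The difference was 0.92 within each replicate number, and the change of 0.92 ± 0.23 (SE) missed the threshold (adjusted p = 0.116). Etfdh, which passes these electrons to ubiquinone, had 0.84 (adjusted p = 0.0663), Hadh, the short-chain hydroxyacyl-CoA dehydrogenase, 0.66 (0.130), and the carnitine carrier Slc25a20 0.57 (0.115). Etfa, the partner chain of Etfb, had -0.41 (adjusted p = 0.166), and these 4 genes were named after their values were seen.

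Of 23 other sterol genes, Ch25h was the 1 that passed and the median change was -0.06. Mertk, an LXR target that takes up dying cells, was at 10.02 and 10.03 in control and 8.92 and 9.29 in SAHA arrays. Both SAHA arrays were lower, and its change of -0.92 ± 0.17 (SE, adjusted p = 0.0509) passed with robust spread and with median centring. Msr1, a scavenger receptor for modified lipoproteins, had -0.73 (adjusted p = 0.0745) and the LXR target Smpdl3a -0.64 (0.0857), both named after their values were seen. Among 7 receptor partners and coactivators none passed, with Ncoa2 at -0.52 (adjusted p = 0.245) and Rxra at -0.29 (0.376), and the list median was -0.19. Among 21 droplet, lipolysis and acyl-CoA genes none passed, with Fabp7 at -0.65 (adjusted p = 0.239) and Acsl5, an acyl-CoA synthetase, at -0.57 (0.124), and the list median was -0.12.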

How the data were processed

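The table the authors deposited holds log2 signals of probe sets on 4 Affymetrix arrays, made with biotin-labelled cRNA from 6 µg of total RNA per the labels' protocols. Per the submitters' processing notes R 2.7 was used; the summarisation and normalization are not given in the sources used here. That the scale is log2 was read from the values, 2.59 to 15.0. Arrays give no read depth, and their number limits the precision: an exact two-sided permutation test of 2 against 2 cannot go below p = 0.333.

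Probe sets with 1 gene symbol (34958 of 45101, GEO's platform annotation, symbols updated by Entrez identifier for 34754) were reduced to the brightest per gene, giving 18194 genes. Groups were compared across all genes with limma 3.58.1 in R 4.3.3 (lmFit, eBayes with an intensity trend, two-sided), and p-values were Benjamini-Hochberg adjusted over all genes. The fit was run on simulated data with independent noise on each array. Gaps shared by same-numbered arrays were left out, so that run does not cover them. The members and gene lists were chosen with earlier results of these data known. All measured members were named, with values on each array at least for those past the threshold, changed 2-fold or with same-group arrays 1 log2 unit apart. From the pathway lists, genes past the threshold and the 2 largest changes of each list were named. Alternatives were other variance models, normalizations, floors, offsets, filters, probe set choices, a stricter threshold, replicate number in the design, and each array left out.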

Additional observations from a re-analysis of the deposited data

How the results depend on the processing

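The count of 2 lipid handling genes called higher was 1 (Dgat1) without the intensity trend, with quantile normalization, after 32 was added to linear values and among genes above the median level. It was 0 with the floor at the 20th percentile, with averaged probe sets and at an adjusted p under 0.01, and 0 to 1 with 1 array left out. It stayed at 2 with robust spread and median centring. The count called lower, 0 otherwise, was 0 to 1 with 1 array left out (Nr1h3 without control replicate 1). For Acadl the adjusted p was 0.0511 with quantile normalization, 0.0540 with the offset, 0.0523 among genes above the median level and 0.316 with averaged probe sets, where its change was 0.32. Of the pathway genes, 2 called higher became 1 with quantile normalization, the offset, genes above the median level or averaged probe sets, 0 with the floor or at 0.01, and 0 to 2 with 1 array left out, where Ch25h was never called and Etfb was without control replicate 1. Mertk made 1 called lower with robust spread or median centring, against 0.

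With the replicate block, 3616 of all genes passed against 405, and 8 of the lipid handling genes were called higher (Abcg1, Acadl, Acadvl, Angptl4, Cpt1a, Dgat1, Lpcat3 and Plin2) and 8 lower (Abca1, Apoc2, Apoe, Fabp3, Fabp5, Mgll, Nr1h3 and Pltp), with 11 pathway genes higher and 8 lower. Replicate gaps in control and SAHA correlated at 0.57 across 18194 genes and 0.88 across the 35, which share the same 4 arrays. Apoe, whose gap was known beforehand, had the largest gaps of the 35 (2.03 and 2.61), and the correlation without it was not calculated. The labels tie no number to a culture, so the block set no call.

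No gene past the threshold changed sign under these settings. Other genes did. With averaged probe sets Ppargc1a was at -0.0014, Fabp4 at 0.040, Dgat2 at 0.12 and Pnpla2 at -0.00062. Single further probe sets of opposite sign gave -0.062 for Ppara, -0.19 for Ppard, -0.0093, -0.11, -0.035 and -0.0022 for Ppargc1a, 0.018 for Lpl, -0.011 for Angptl4, 0.12 and 0.032 for Vldlr, 0.15 for Fabp3, 0.40 for Fabp4, 0.36 for Dgat2 and -0.23 for Pnpla2. Leaving out 1 array gave -0.013 to 0.18 for Ppara, -0.18 to 0.60 for Ppard, -0.70 to 0.58 for Ppargc1b, -0.32 to 0.24 for Mylip, -2.00 to 0.61 for Apoe, -0.26 to 0.25 for Apobec1, -0.50 to 0.072 for Lrp1, -0.073 to 0.21 for Plin3, -0.48 to 0.26 for Fabp4, -0.31 to 0.049 for Dgat2, -0.020 to 0.23 for Cpt2 and -0.0065 to 0.22 for Hadha. When 1 array is dropped, the remaining one of its group borrows its spread from the other pair. The causes were not tested.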
